A study of Mus musculus with 2 samples.

Results

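Imprinted genes are read from the chromosome copy of 1 parent only, and 37 of them were taken by symbol for a description of mouse gonadal fat. The list was given by name and not by a cut-off on level, but it was chosen with earlier results of these data known. Identifiers in the deposited gene table were matched to symbols, and 36 of the 37 genes were measured, of 43346 Ensembl genes in all. The remaining gene, Peg13, was not analysed here. The 37 genes lie in 17 loci, and the 36 measured genes lie on 8 chromosomes, with 16 of them on chromosome 7.

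Polyadenylated RNA came from the gonadal (genital) fat pad, the white fat depot beside the gonads, of adult C57BL/6J mice aged 8 weeks. There were 2 strand-specific, paired-end libraries of 1 group, biological replicates 1 and 2, from separate biosamples with the same donor identifier. No treatment, genotype or second tissue was compared, so any difference between the 2 libraries is a description without a test. The labels give pooled male and female littermates. Yet Xist, the RNA of the inactive X chromosome, had only 18 and 4 fragments in replicates 1 and 2, listed as 0.03 and 0 TPM. The Y-linked genes Eif2s3y (10.5 and 16.9 TPM) and Ddx3y (6.7 and 6.73 TPM) were expressed in both libraries. By these sex-linked genes the RNA looked mostly male, in conflict with the labels, and the share of each sex was not tested. Because C57BL/6J is inbred, its parental chromosomes carry the same sequence and the parental origin of a transcript could not be measured. Where a parental allele is named, it is textbook background.

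Imprints are set in the germ line as DNA methylation at control regions, survive the reprogramming of the early embryo, and leave 1 parental copy of nearby genes active. Clusters typically pair protein-coding genes with a long non-coding RNA, and many members act on fetal growth, placental nutrient supply and postnatal energy balance. In fat, Gs-alpha carries hormone and catecholamine signals to adenylyl cyclase, and the paternally expressed genes Peg3, Ndn, Nnat and Mest have been studied in adipose growth.

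Sequences upstream of 5 transcription starts are given because the transcript shares below turn on which start was used, or because the gene was among the abundant members. They are the 250 bases before the start that RefSeq gives, on the strand of the gene and on GRCm38.p6 (mm10), with each CG dinucleotide, the site of imprint methylation, in capitals. The starts are Gnas exon 1A (chr2:174327499-174327748, + strand), Nnat (chr2:157559828-157560077, + strand), the upstream Grb10 start (chr11:12037421-12037670, - strand), the downstream Grb10 start (chr11:12027972-12028221, - strand) and Meg3 (chr12:109540746-109540995, + strand). For exon 1A, GENCODE places some starts inside the window, among them that of Gnas-221 at position 174327699, so its last bases are transcribed in that transcript.
Gnas exon 1A: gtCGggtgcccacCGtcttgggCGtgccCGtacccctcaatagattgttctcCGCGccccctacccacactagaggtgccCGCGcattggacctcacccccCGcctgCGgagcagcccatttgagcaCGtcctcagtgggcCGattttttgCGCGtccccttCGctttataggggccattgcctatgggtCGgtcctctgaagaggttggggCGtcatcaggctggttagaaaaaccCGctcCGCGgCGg
Nnat: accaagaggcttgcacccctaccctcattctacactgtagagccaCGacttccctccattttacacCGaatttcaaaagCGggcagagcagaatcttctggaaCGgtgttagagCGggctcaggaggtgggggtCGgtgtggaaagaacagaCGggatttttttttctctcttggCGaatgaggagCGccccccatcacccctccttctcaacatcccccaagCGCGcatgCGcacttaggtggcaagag
Grb10 upstream start: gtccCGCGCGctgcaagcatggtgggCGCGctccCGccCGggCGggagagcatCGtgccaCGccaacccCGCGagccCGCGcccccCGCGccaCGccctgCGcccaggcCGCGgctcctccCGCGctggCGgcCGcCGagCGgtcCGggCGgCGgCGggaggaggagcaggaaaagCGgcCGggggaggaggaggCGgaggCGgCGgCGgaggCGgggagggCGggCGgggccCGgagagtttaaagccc
Grb10 downstream start: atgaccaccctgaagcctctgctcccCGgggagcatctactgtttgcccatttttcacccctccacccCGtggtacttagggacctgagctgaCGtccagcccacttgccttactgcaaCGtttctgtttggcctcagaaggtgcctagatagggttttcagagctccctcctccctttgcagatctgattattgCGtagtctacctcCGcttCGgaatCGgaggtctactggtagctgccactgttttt
Meg3: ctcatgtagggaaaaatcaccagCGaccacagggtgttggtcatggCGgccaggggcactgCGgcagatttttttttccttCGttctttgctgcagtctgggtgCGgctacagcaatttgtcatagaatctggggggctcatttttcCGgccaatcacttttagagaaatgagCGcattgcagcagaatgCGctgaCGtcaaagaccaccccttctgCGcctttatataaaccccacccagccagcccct
The upstream Grb10 window held 40 CG dinucleotides and the downstream one 8, while the exon 1A window held 21, Nnat 12 and Meg3 10. Of all 32851 RefSeq windows of this length, 98.7% had fewer CG dinucleotides than the upstream Grb10 window, and 57.0% had fewer than the downstream one. The median was 10 over the 41 windows of the 29 members that matched and 6 over all windows.

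Expression was given as TPM (transcript abundance corrected for transcript length and library depth), and values are for replicate 1 and then replicate 2. Expected counts over genes, the estimated numbers of fragments, summed to 47106979 and 54129473. Expression was counted from a level of 1 TPM, which each library had to reach. By that rule 28 of the 36 measured imprinted genes (77.8%) were expressed, while over all Ensembl genes the share was 33.0%. The median over the 36 was 6.74 and 6.87 TPM, against 0.03 and 0.03 TPM over all Ensembl genes. Among expressed genes only, the imprinted genes had a median of 11.1 and 10.5 TPM and all genes 14.2 and 12.7 TPM. Thus the members were detected more often than the average gene, while those expressed had a median slightly under that of expressed genes in general. Of the 36, 29 are protein-coding, as were 13628 of the 14875 genes whose mean reached 1 TPM. The share over all Ensembl genes was not matched for gene class, so the excess in detection cannot be told apart from gene class.

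The range among the members was wide. Gnas, Nnat, Meg3 and H13 were at 100 TPM or more in both libraries, 11 members had a mean between 10 and 100 TPM, 13 had a mean between 1 and 10 TPM, and 8 were under 1 TPM in both libraries. The 36 genes summed to 2725 and 2333 TPM, and Gnas and Nnat together made up 80.5% and 74.1% of that sum. Gnas stood high among all expressed genes, of which 0.860% had a higher mean. The share above Nnat was 1.03%, that above Meg3 6.80% and that above H13 6.85%. In bulk tissue, a difference in the number of cells of a type and one in RNA per cell cannot be told apart.

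**Figure D1:**
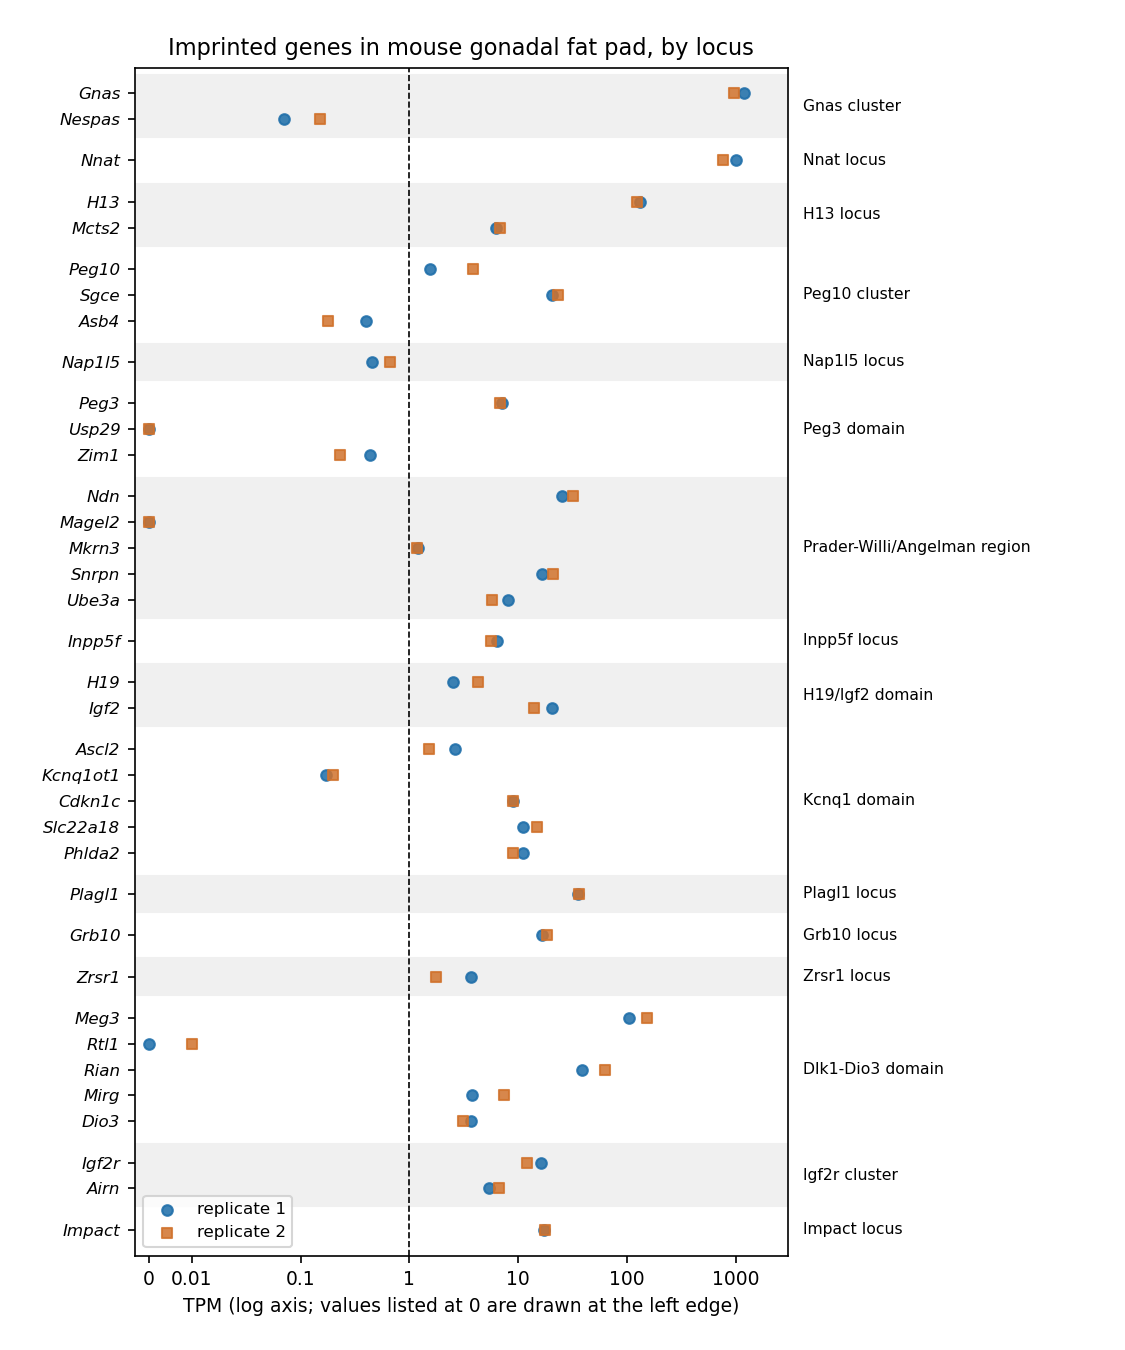
Level of each measured imprinted gene in TPM (log axis, values listed at 0 drawn at the left edge), grouped by locus, with a circle for replicate 1 and a square for replicate 2. The dashed line marks 1 TPM; Gnas and Nnat lie far to the right, and 8 genes lie left of the line in both libraries.

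Gnas (chr2:174284320-174346744, + strand), which encodes the stimulatory G protein subunit Gs-alpha and several other products from alternative first exons, was the highest member. Its level was 1192 TPM in replicate 1 and 970 TPM in replicate 2 (mean 1081 ± 157, SD, n = 2), from 66402 and 65186 fragments. The Gs-alpha exon 1 is biallelic in most tissues, whereas the upstream Nesp exon is maternal and the Gnasxl and 1A exons are paternal. Transcripts were therefore grouped by first exon.

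Transcripts from the Gs-alpha exon 1 held 96.4% of the Gnas TPM in replicate 1 and 84.3% in replicate 2, or 1149 and 818 TPM. Exon 1A transcripts held 2.52% and 14.6%, or 30 and 142.1 TPM. Most of the exon 1A signal in both libraries was the non-coding Gnas-221, at 21.3 and 136.9 TPM from 963 and 7650 fragments. Exon 1A marks the promoter whose methylation on the maternal allele is lost in a form of pseudohypoparathyroidism, a hormone resistance syndrome. Transcripts from these first exons share later exons, so the split between first exons is an estimate by the authors' quantification. Nesp transcripts, which encode the secretory protein NESP55, were at 0.84 and 0.25 TPM from 62.1 and 25.8 fragments. Gnasxl transcripts, which encode the large variant XL-alpha-s, were listed at 0 in replicate 1 and summed to 0.04 TPM in replicate 2, from 5.66 fragments. Transcripts with an internal start held 1.02% and 1.04%. Coding transcripts were thus mostly those of the Gs-alpha exon 1. Neither the Nesp nor the Gnasxl class reached 1 TPM, while Gnas-202, an exon 1A transcript annotated as coding, was at 5.97 and 3.16 TPM from 821 and 540 fragments.

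Within Gs-alpha, inclusion of a 45-nt exon (chr2:174336747-174336791) gives the long form of the protein and its skipping the short form. Transcripts with that exon held 83.6% of the exon 1 TPM in replicate 1 and 75.2% in replicate 2. The lead was Gnas-208, which holds the exon, at 957 and 613 TPM (80.2% and 63.2% of the gene). Among transcripts without it, Gnas-206 was at 103.5 and 148.3 TPM (8.68% and 15.3%), and Gnas-207 at 85.3 and 54.6 TPM (7.15% and 5.63%). The long form led in both libraries. Nespas, the antisense RNA that crosses the Nesp exon, had 4 and 14 fragments, or 0.07 and 0.15 TPM.

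The partners of Gs-alpha were present. All 16 genes of a list of beta-adrenergic receptors, adenylyl cyclases, protein kinase A subunits and other G protein subunits were expressed, and their median was 43.0 and 46.7 TPM. The beta and gamma partners included Gnb2 at 621 and 597 TPM and Gnb1 at 542 and 626 TPM. The inhibitory subunit Gnai2 was at 574 and 519 TPM, and Adrb3, the beta-3 adrenergic receptor of fat, at 566 and 347 TPM. Gnas exceeded each of these genes in both libraries.

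Grb10 (chr11:11930508-12038683, - strand) encodes an adaptor that binds the insulin and IGF1 receptors and restrains their signal. It is maternal in most tissues from its upstream start and paternal in neurons from a downstream start. Its level was 16.7 and 18.4 TPM (mean 17.6 ± 1.19, SD, n = 2), from 2714 and 3793 fragments. Grb10-201, which begins at the upstream start, was at 11.8 and 12.5 TPM, or 70.6% and 67.6% of the gene. Grb10-203, the next in level, begins at a start downstream of that one and made up 17.9% and 23.2%, or 2.99 and 4.28 TPM from 507 and 900 fragments. Both shares differed little between the libraries. The CG-dense upstream window and the downstream window printed above lie before these starts. Whether the start of Grb10-203 is the neuronal one was not determined. Other annotated starts lie further downstream, among them those of Grb10-207 (0.54 and 0 TPM) and Grb10-209 (0.05 and 0.04 TPM). Of 5 neuron markers only Rbfox3 was expressed (10.1 and 7.56 TPM), and Snap25, a synaptic gene, was at 0.07 and 0.06 TPM. The 5 summed to 11.9 and 10.04 TPM. The part of neurons in the downstream Grb10 transcripts was not tested.

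**Figure D2:**
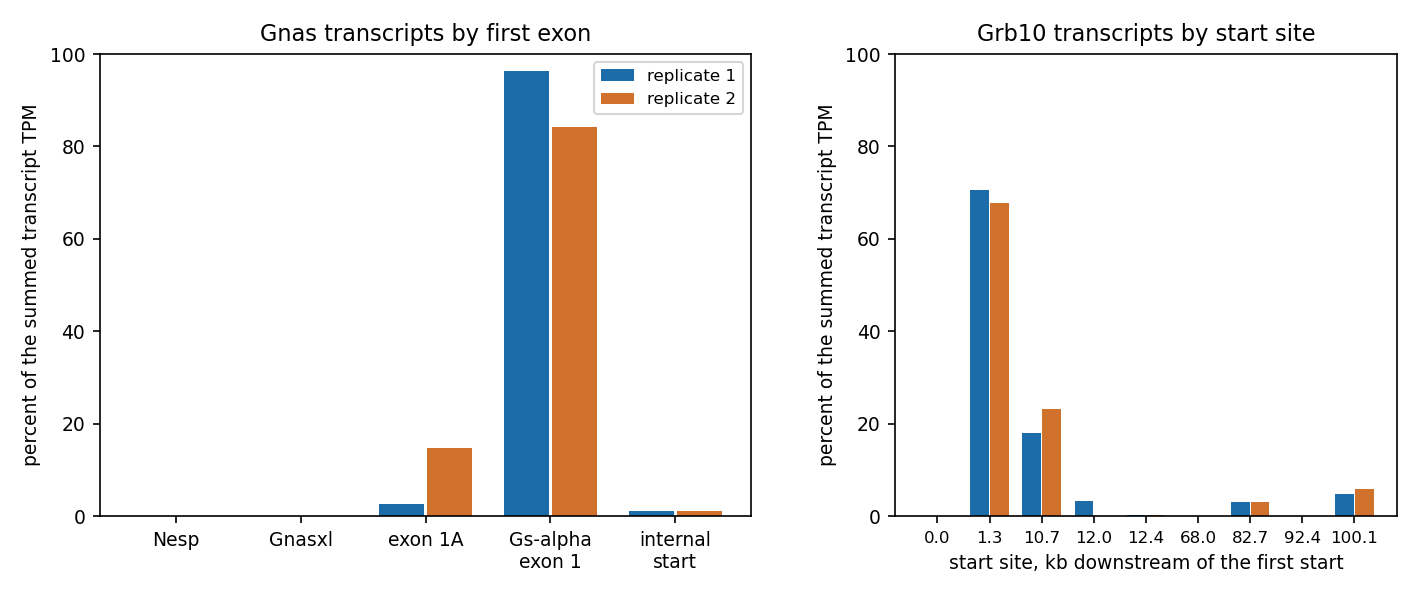
Percent of the summed transcript TPM of Gnas by first exon (left) and of Grb10 by start site, in kb downstream of the first annotated start (right), with a bar for each replicate. The Gs-alpha exon 1 holds 96.4% and 84.3% of Gnas, exon 1A holds 2.52% and 14.6%, and the Grb10 start at 1.3 kb holds 70.6% and 67.6%.

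The remaining members of the growth factor pathway were moderately expressed. Igf2 (chr7:142650766-142666816, - strand), the paternally expressed insulin-like growth factor 2, was at 20.6 and 14.04 TPM from 979 and 738 fragments. Its clearance receptor Igf2r, maternal in the mouse, was at 16.4 and 12.1 TPM. Both were higher in replicate 1. H19, the maternal non-coding RNA that shares enhancers and a control region with Igf2, was at 2.53 and 4.26 TPM from 150 and 278 fragments. Igf2 thus exceeded H19 by 8.15-fold in replicate 1 and 3.30-fold in replicate 2. The paternal RNA Airn, which overlaps Igf2r in antisense, was at 5.43 and 6.74 TPM, and Igf2r exceeded it by 3.02-fold and 1.79-fold. In both loci the protein-coding gene was above the non-coding RNA in both libraries, by a smaller ratio in replicate 2.

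Transcripts of these loci were mixed. The largest share of Igf2 went to Igf2-208, a transcript annotated as non-coding, with 45.04% and 56.37% of the TPM. The coding Igf2-203 held 31.6% and 25.5%, and the full-length coding Igf2-201 held 11.2% and 10.1%. By fragments the order differed in replicate 1, where Igf2-201 held 30.7% and Igf2-208 held 26.2%, while in replicate 2 Igf2-208 held 36.6% and Igf2-201 31.0%. For Airn, Airn-205 led in replicate 1 (50.7%, then 32.4%) and Airn-201 in replicate 2 (38%, then 47.1%). Igf2r was almost a single transcript, Igf2r-201, with 97.97% and 95.74%.

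Other genes of the pathway were described from a list of 15 ligands, receptors, substrates and binding proteins, of which 11 were expressed and 2 were under 1 TPM in both libraries. The median over the list was 25.6 and 17.5 TPM. The binding proteins Igfbp7 (909 and 506 TPM), Igfbp4 (351 and 401 TPM) and Igfbp6 (112 and 117 TPM) stood high, and the ligand Igf1 was at 120.0 and 117.9 TPM. Igf1 RNA was therefore above Igf2 RNA on the length-scaled TPM in both libraries.

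Nnat (chr2:157560078-157562522, + strand), the paternally expressed neuronatin, encodes a small membrane protein of the endoplasmic reticulum named for its abundance in newborn brain. It was the second member in level, at 1002 and 758 TPM (mean 879.7 ± 172.7, SD, n = 2) from 35877 and 33514 fragments. Nnat-202 held 83.2% and 83.5% of it. Nnat lies in an intron of Blcap, a gene found in many tissues, which was at 72.4 and 66.8 TPM. Nnat exceeded its host by 13.8-fold and 11.3-fold. Of the 4 measured members that were compared with a host gene (Nnat, Mcts2, Zrsr1 and Nap1l5), Nnat alone exceeded its host.

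Mcts2, Zrsr1 and Nap1l5 are paternally expressed genes that arose by retrotransposition into introns of other genes. Mcts2, a copy of the translation factor gene Mcts1, was at 6.20 and 6.86 TPM from 162 and 221 fragments. Its host H13, which encodes the signal peptide peptidase, was at 132.9 and 124.7 TPM, 21.4-fold and 18.2-fold above it. The parent gene Mcts1 was at 12.4 and 14.6 TPM. Coding sequences of Mcts2 and Mcts1 were 85.1% identical over 543 nt, and no 76-nt stretch, the length of a read, was shared between Mcts2 and another annotated gene.

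Zrsr1, a splicing factor gene copied from Zrsr2, was at 3.67 and 1.74 TPM from 420 and 247 fragments. Its host Commd1 was 3.49-fold and 7.201-fold higher, and Zrsr2 was 2.50-fold and 3.29-fold higher. The coding sequences of Zrsr1 and Zrsr2 were 80.6% identical at aligned positions. Nap1l5 was under the 1 TPM limit, at 0.45 and 0.66 TPM, inside Herc3 at 17.0 and 14.1 TPM. Inpp5f, a phosphoinositide phosphatase gene with an imprinted retrogene-derived transcript in brain, was at 6.40 and 5.62 TPM.

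The hosts that end or start alternatively around an imprinted gene showed the following transcripts. H13-202 held 78.2% and 79.2% of H13, and H13-204 held 10.3% and 9.84%, and both run past Mcts2. Less was held by forms that end before Mcts2, H13-203 (5.35% and 4.66%) and the retained-intron H13-206 (4.85% and 4.86%). For Inpp5f, Inpp5f-201 held 70.2% and 56.6%, Inpp5f-208 held 8.56% and 17.0%, Inpp5f-202 held 14.2% and 5.44%, and the retained-intron form Inpp5f-206 was listed at 0 and then at 14.7%. The H13 shares were close between libraries and those of Inpp5f were not.

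**Figure D3:**
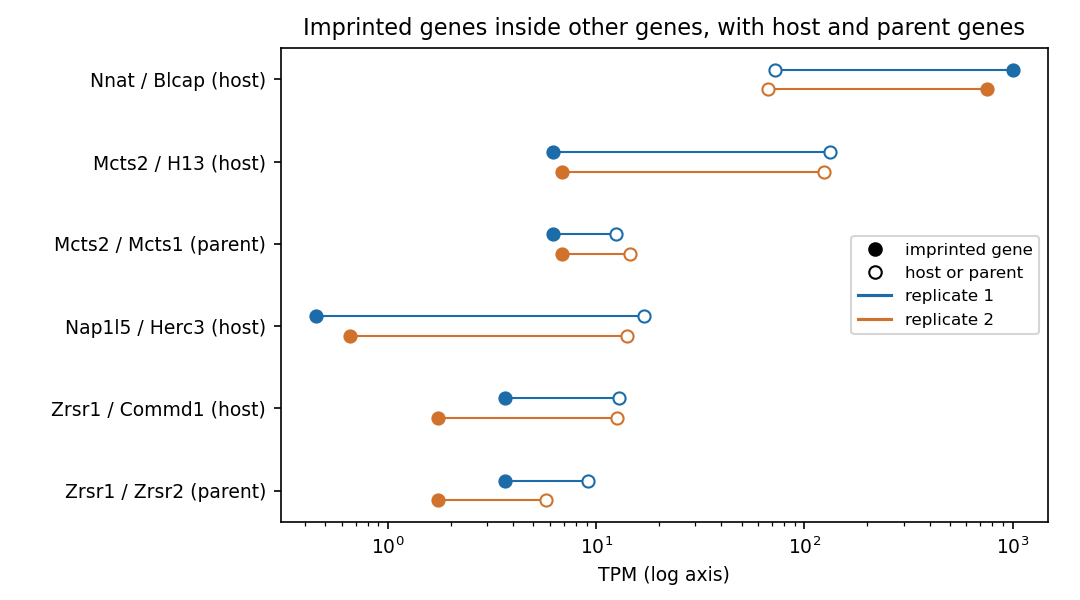
Level in TPM (log axis) of Nnat, Mcts2, Zrsr1 and Nap1l5 (filled circles), with replicates by colour. Each is joined to its host or to the parent gene it was copied from (open circles). Nnat is right of its host, whereas Mcts2 and Zrsr1 are left of host and parent, and Nap1l5 of its host, in both libraries.

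The Dlk1-Dio3 domain on chromosome 12 holds maternal non-coding RNAs, of which Meg3 and Rian were the most abundant non-coding members. Meg3 (chr12:109541001-109571726, + strand), also called Gtl2, was at 105.7 and 154.1 TPM (mean 129.9 ± 34.2, SD, n = 2) from 4410 and 7924 fragments. Rian, the host of many small nucleolar RNAs, was at 38.5 and 63.1 TPM from 1081 and 2280 fragments. Mirg, a microRNA host, had 107 and 280 fragments, or 3.77 and 7.38 TPM. The order of the levels, Meg3 above Rian above Mirg, was also the order of the genes along the chromosome, and all 3 were higher in replicate 2.

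The protein-coding genes of that domain are paternal. Dio3, the deiodinase that inactivates thyroid hormone, was at 3.65 and 3.14 TPM, and Rtl1, a gene derived from a retrotransposon and needed in placenta, had 1 and 2 fragments. Dlk1, also known as preadipocyte factor 1, was at 3.14 and 2.24 TPM. Meg3 therefore exceeded each coding gene measured in the domain. Among transcripts singled out after their values were seen, Dio3-202 held 100% and 45.1% of Dio3, and Dio3-201 was listed at 0 and then at 54.9%, although the level of the gene differed little.

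Several transcripts made up each of the non-coding genes. Meg3-204 held 35.5% and 27.9% of Meg3, Meg3-208 27.8% and 31.9%, Meg3-205 19.02% and 23.15%, and Meg3-207 10.6% and 10.5%. By fragments, the 14548-nt Meg3-209 held 33.7% and 30.2%, against 2.63% and 2.33% by TPM. For Rian, Rian-207 held 34.6% and 42.0%, Rian-213 21.3% and 24.2%, Rian-202 12.5% and 10.9%, and Rian-208 11.5% and 1.56%. For Mirg, Mirg-207 held 67.6% and 47.6% and Mirg-202 held 18.2% and 36.8%. No single transcript held more than 42.0% of Meg3 or Rian in either library.

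The remaining non-coding RNA, Kcnq1ot1, is the paternal silencer of the Kcnq1 domain on chromosome 7. It was at 0.17 and 0.20 TPM, and the low value rests on an effective length of 84 kb, since 535 and 799 fragments were assigned to it. Its neighbours are maternal. Cdkn1c, the cell cycle inhibitor p57, was at 8.89 and 8.95 TPM (mean 8.92 ± 0.042, SD, n = 2). Phlda2, a brake on placental growth, was at 11.2 and 8.92 TPM, and the trophoblast transcription factor gene Ascl2 at 2.63 and 1.51 TPM. Slc22a18, an organic cation transporter gene, was at 11.0 and 14.9 TPM. All 4 coding neighbours were expressed.

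Cdkn1c was divided between Cdkn1c-201 (57.8% and 61.1%) and Cdkn1c-202 (42.3% and 38.9%). For Slc22a18, Slc22a18-201 held 92.04% of the TPM in replicate 1 and 56.5% in replicate 2, at 10.2 and 8.42 TPM from 495 and 509 fragments. The rest of replicate 2 was mostly a 357-nt transcript without a name in the annotation used here, at 6.06 TPM from 37.6 fragments and listed at 0 in replicate 1. The higher TPM of Slc22a18 in replicate 2 thus rested on a short transcript with few fragments.

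Plagl1, a paternal zinc finger factor also called Zac1, was at 35.6 and 36.2 TPM (mean 35.9 ± 0.438, SD, n = 2) from 3633 and 3512 fragments. Plagl1-202 held 50.0% and 35.9%, Plagl1-208 14.8% and 28.2%, and Plagl1-220 11.0% and 13.3%. Peg3 (chr7:6703892-6730431, - strand), a large paternal zinc finger gene, was at 7.07 and 6.87 TPM (mean 6.97 ± 0.141, SD, n = 2). Peg3-201 held 87.0% and 89.6% and the retained-intron form Peg3-204 held 13.04% and 10.4%. By the TPM of the gene, both factors were at nearly the same level in the 2 libraries, although the lead Plagl1 transcript was lower in replicate 2.

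Peg3 shares a bidirectional promoter with the paternal gene Usp29, but the deposited table held for Usp29 only Usp29-201, a single exon that starts far downstream at chr7 position 6961160. That transcript had 0 fragments in both libraries, which allows up to 3 fragments, or 0.0336 and 0.0271 TPM, by counting error alone. RNA of Usp29 from the shared promoter was not measured by it. The maternal neighbour Zim1, a zinc finger gene, was at 0.43 and 0.23 TPM. As measured here, Peg3 was the expressed member of this domain.

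In the Prader-Willi/Angelman region on chromosome 7, the paternal genes differed widely. Ndn, which encodes the growth suppressor necdin, was at 25.2 and 32.2 TPM from 1351 and 2133 fragments. Snrpn, a spliceosome protein gene, was at 16.4 and 20.8 TPM, all of it in Snrpn-201. Mkrn3, a ubiquitin ligase gene tied to the timing of puberty, was at 1.21 and 1.17 TPM. Magel2, a neighbour of Ndn from the same MAGE family, had 0 fragments in both libraries, for which 3 fragments would be 0.0181 and 0.0146 TPM. Ube3a, the ubiquitin ligase lost in Angelman syndrome and maternal only in neurons, was at 8.15 and 5.75 TPM. Hence 4 of the 5 genes were expressed, and adjacent MAGE genes stood at opposite ends of the range.

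In the Peg10 cluster on chromosome 6, Sgce, which encodes epsilon-sarcoglycan, was at 20.7 and 23.1 TPM from 1143 and 1573 fragments. Peg10, a retrotransposon-derived gene needed in placenta that begins head to head with Sgce, was at 1.54 and 3.86 TPM from 222 and 1052 fragments. Sgce exceeded it by 13.4-fold and 5.98-fold. Asb4, a maternal neighbour, was at 0.40 and 0.18 TPM. Impact, a paternal regulator of the amino acid sensor GCN2, was at 17.4 and 17.7 TPM on chromosome 18.

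The libraries were then compared gene by gene. The log2 ratio of (TPM + 1), replicate 2 over replicate 1, understates differences of low genes. Over the 14875 genes whose mean reached 1 TPM its median was -0.12 with an SD of 0.47, so member ratios are given after subtraction of that median. Of the 32 members with a mean of 20 fragments or more, 0 were over 2-fold apart before subtraction. Over all such genes the share was 2.70% (1.15% higher in replicate 2 and 1.54% in replicate 1). With only 32 members, a count of 0 cannot be told apart from that share. Without the added 1, the TPM in replicate 2 was 2.51 times that in replicate 1 for Peg10 and 0.474 times for Zrsr1. The median ratio of the 28 expressed members was 0.01, or 0.14 after subtraction, with a range from -0.65 to 1.06. After subtraction 18 were higher in replicate 2 and 10 in replicate 1.

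Peg10 had the largest ratio, 1.06, and 2.66% of the 14875 genes lay further from their median. Singled out after its values were seen, Peg10-202 was at 0.28 and 2.35 TPM and Peg10-203 at 0.69 and 1.51 TPM. A 1477-nt Peg10 transcript without a name in the annotation used here went the other way, at 0.57 and 0 TPM from 26.7 and 0 fragments. At the other end, Zrsr1 had -0.65, with 9.61% of genes further apart. With TMM scaling of counts in place of TPM, Peg10 passed 2-fold, at 1.88 before subtraction. Apart from these, the coding members furthest from 0 were Slc22a18 (0.52), Ndn (0.46), Snrpn (0.44), Ascl2 (-0.41), Igf2 (-0.40), Ube3a (-0.32), Igf2r (-0.29) and Nnat (-0.28). None of these was extreme among the 14875 genes, of which 15.4% lay further apart than Slc22a18 and 40.0% further than Nnat. The ratio of Slc22a18 changed sign with scaling by counts, to -0.07.

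The 7 non-coding members, a division made after the values were seen, all had a higher TPM in replicate 2. The 5 that were expressed had ratios of 0.93 for Mirg, 0.82 for Rian, 0.70 for H19, 0.66 for Meg3 and 0.39 for Airn. These stayed above 0 under each of the 6 other scalings and units tried. Among the 29 coding members 12 were higher in replicate 2 and 15 in replicate 1 by TPM, and the expressed ones had a median ratio of 0.08. For all 661 long non-coding genes whose mean reached 1 TPM, 43.1% were higher in replicate 2 and the median ratio was 0.06. Meg3, Rian and Mirg share a locus and are not independent of each other.

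**Figure D4:**
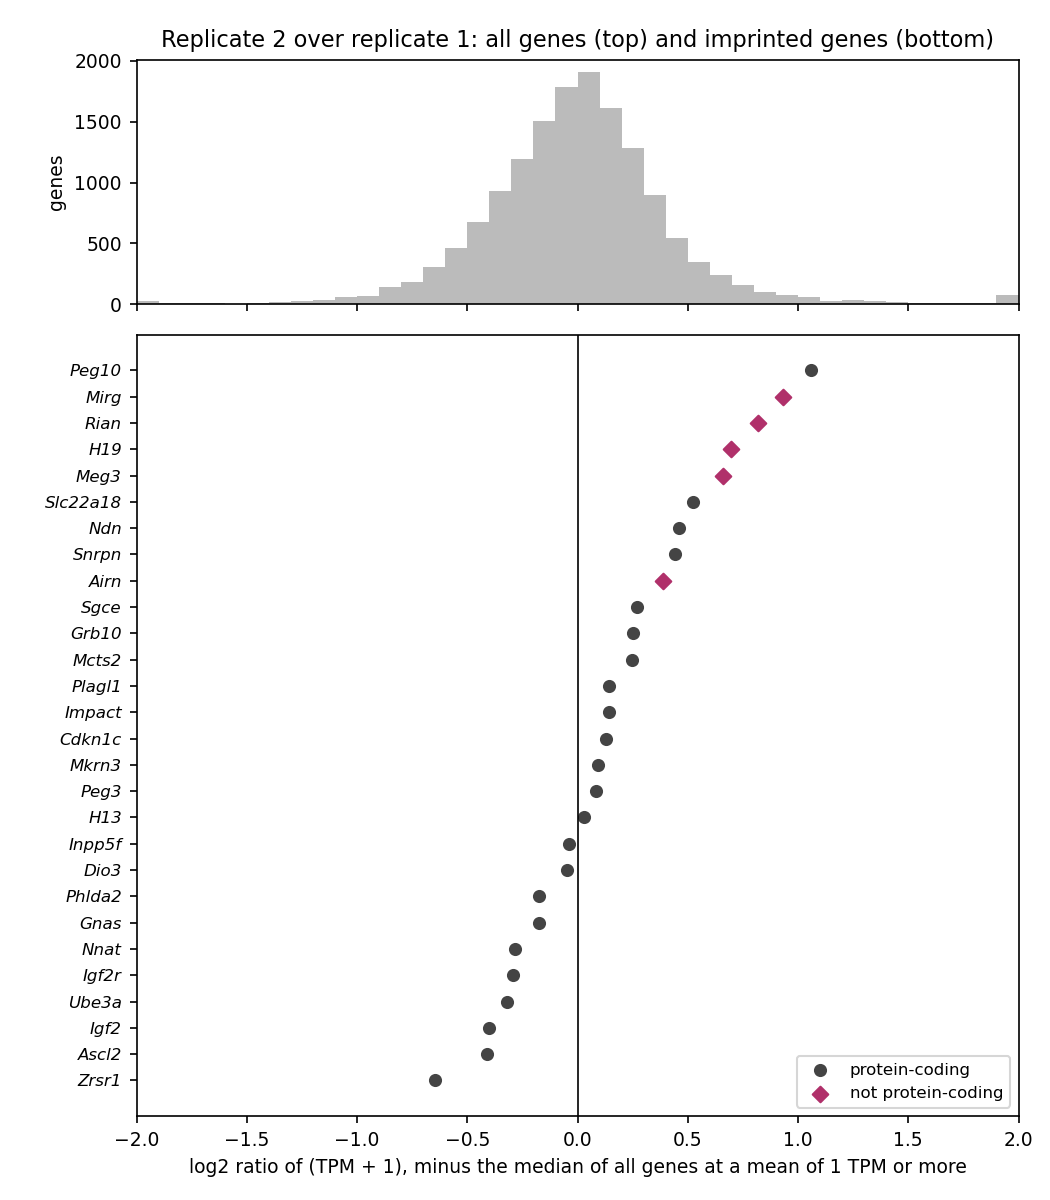
Histogram of the log2 ratio of (TPM + 1), replicate 2 over replicate 1, for 14875 genes after subtraction of their median (top, with values beyond the axis added to the end bars), and the same ratio for 28 expressed imprinted genes (bottom; diamonds are not protein-coding). The 5 non-coding genes lie between 0.39 and 0.93, and Peg10 and Zrsr1 mark the ends at 1.06 and -0.65.

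Grouped by textbook parental allele, 9 of 11 maternal genes were expressed (median 8.89 and 8.92 TPM). Of 20 measured paternal genes 14 were expressed (median 4.55 and 5.30 TPM). All 5 genes whose allele depends on tissue or transcript (Gnas, Grb10, Ube3a, H13 and Inpp5f) were expressed (median 16.7 and 18.4 TPM). The median ratio was 0.52 for the expressed maternal genes and 0.14 for the paternal ones. The maternal median is the value of Slc22a18 itself, which changed to -0.07 with scaling by counts. The next lower maternal value was 0.13, for Cdkn1c, so the gap between the medians rests on 1 gene. The maternal group holds Meg3, Rian, Mirg and H19, so the division by allele also overlaps the one by non-coding class.

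Markers of cell types were compared between the libraries in the same way. All 10 adipocyte markers were expressed, among them Adipoq at 767 and 1299 TPM. Of the 10, 6 were higher in replicate 2 by TPM and 8 after subtraction of the median. Their summed level was 18909 and 18729 TPM, and Cfd, which encodes adipsin, was at 6724 and 3717 TPM. All 10 markers of epididymis epithelium were expressed too, with sums of 41276 and 28798 TPM, and 8 of them were higher in replicate 1. All 4 spermatid markers were higher in replicate 1, with sums of 506 and 339 TPM. The 4 endothelial markers summed to 470 and 558 TPM. By TPM 3 of them were higher in replicate 2 and 1 in replicate 1, and after subtraction all 4 were higher in replicate 2. The 6 stromal progenitor markers summed to 700 and 749 TPM. By TPM 3 were higher in each library, and after subtraction 4 were higher in replicate 2 and 2 in replicate 1. All 4 skeletal muscle markers, of which 2 were expressed, were higher in replicate 2, with sums of 89.4 and 124.4 TPM. Their median ratio, over those whose mean reached 1 TPM, was 0.87 after subtraction. The 4 macrophage markers summed to 436 and 532 TPM. By TPM 2 were higher in each library, and after subtraction 3 were higher in replicate 2 and 1 in replicate 1. The part of the cell types in the levels and ratios of the imprinted genes was not tested.

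Beyond the 36 genes, 38 other imprinted genes were measured from a list of 40, and 25 were expressed, while 10 were under 1 TPM in both libraries. Their highest levels were Cd81 (653 and 475 TPM), a tetraspanin gene, Mest (209 and 664 TPM), a paternal gene of adipocyte growth, Blcap, and Tssc4 (57.2 and 61.4 TPM). Of 34 with a mean of 20 fragments or more, 2 were over 2-fold apart before subtraction, where the share over all such genes was 2.70%. They were Mest (1.66 before and 1.78 after subtraction) and Gatm, a creatine synthesis gene (-1.01 and -0.89). With only 34 genes, the count of 2 cannot be told apart from that share. In this TPM comparison no gene of the main list lay as far apart as Mest.

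Genes that set, keep or erase imprints were expressed in 15 of 18 cases, at a median of 8.02 and 6.40 TPM. The highest were Trim28 (222 and 165 TPM), the corepressor recruited to imprints, and Ehmt2 (189 and 177 TPM), a histone H3 lysine 9 methyltransferase. The transcription factor Yy1 was at 18.8 and 9.27 TPM and the histone methyltransferase Setdb1 at 14.04 and 12.4 TPM. Of the 17 with enough fragments, 1 was over 2-fold apart, against a share of 2.70% over all such genes, from which it cannot be told apart. It was the germ-line methylation cofactor Dnmt3l, at 1.01 and 5.09 TPM from 22 and 144 fragments. The 3 genes under 1 TPM in both libraries were Tet1, Ctcfl and Dppa3.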

How the data were processed

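Values are from the deposited gene and transcript tables of 2 libraries of 1 group. Per the file headers they give an expected count, TPM, FPKM, posterior means of these, and the percent of gene TPM in each transcript, as computed by the authors. The deposited notes name build mm10 and GENCODE M4. For the aligner, the quantifier and the use of strand in counting, a statement is not given in the sources used here. Junction and contig tables on mm9 were not used here. Counts in rows other than Ensembl genes were 2.28% and 1.83% of the total and entered no ratio.

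Symbols matched 42462 of 43346 genes, and positions and transcript names are from GENCODE M21 on mm10, which matched 197 of 201 member transcripts. Of these genes, 24 had several transcripts, and 17 had several at 10 percent or more. Ratios used a pseudocount of 1 and a mean count of 20 for the 2-fold rule. Expected counts were rounded for the alternatives by TMM (edgeR 4.0.16) and by size factors (DESeq2 1.42.0). The code for the 2-fold rule was tested on simulated data.

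Every member is named. Values in both libraries were given for members at a mean of 5 TPM or more and for genes of interest in fat, and transcripts at 10 percent or more of the gene were given for such members with several of them. The members and lists were chosen with earlier results of these data known. No p-value was computed, because there is 1 group. A check for 1 library deposited in duplicate gave a chi-square of 136.1 per degree of freedom over 19548 genes, so both were kept as separate samples.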

Additional observations from a re-analysis of the deposited data

How the results depend on the processing

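The 2-fold count of members, 0 in the TPM comparison, became 1 with posterior mean TPM, 1 with TMM scaling and 1 with DESeq2 size factors, in each case Peg10 (log2 ratio 1.01, 1.88 and 1.89). It became 2 with a pseudocount of 0.1, Peg10 (1.27) and Zrsr1 (-1.03). The median log2 ratio of expressed members moved from 0.01 to 0.13 with FPKM, 0.11 with TMM, 0.11 with DESeq2 and 0.047 without mitochondrial genes, while the median of all genes moved from -0.12 to -0.01, 0.01, 0.02 and -0.09. The median level of the members moved from 6.80 to 6.96 with posterior mean TPM. The lead Grb10 transcript moved from 69.1% to 65.1% of posterior mean TPM and 76.2% of expected counts. After subtraction of the median of all genes, 16 of 28 members were higher in replicate 2 and 10 in replicate 1 under all 6 alternatives. The other 2, Slc22a18 (-0.07 to 0.57) and Plagl1 (-0.21 to 0.16), changed sign. The cause was not tested.

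No paired analysis was possible because there is only 1 group. With 2 libraries, error is the spread of 2 values. Members under 1 TPM rest on few fragments, except Kcnq1ot1.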

Other observations

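Upstream windows of the imprinted genes were searched on both strands for TGCCGC, the letters bound by the imprint keeper ZFP57 when methylated, and for ATGGCG, the core of YY1 sites. These motifs can share letters. TGCCGC was in 5 of 41 windows (12.2%), those of Mcts2, Meg3, Nap1l5, Plagl1 and Zim1, against 8.68% of all 32851 windows. ATGGCG was in 4 (9.76%), those of Gnas at the Nesp exon, Meg3, Mkrn3 and Ube3a, against 5.73%. Meg3 was the only member with both. The windows before Rian and Slc22a18 and the one before the downstream RefSeq start of Meg3 (chr12:109545148-109545397) held 0 CG dinucleotides. A match is a description of letters, and only the 250 bases before each start were searched.

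Sequence shared with other genes bears on how fragments were assigned. Of all 76-nt stretches of Igf2 transcripts, 60.2% also occur in Gm49394, a read-through gene of the newer annotation, and 0% in a gene of the deposited table. For Snrpn, 18.8% occur in Gm38393, which the deposited table holds. For Meg3 the share was 3.82%. On the opposite strand, exons of 15 members overlapped those of another gene of GENCODE M21. Ube3a exons overlapped those of Snhg14 over 8.74% of their length, and Nespas exons those of Gnas over 31.4%. Cdkn1c exons overlapped those of Gm44732 over 30.7%, and Gnas exons those of Gm20721 over 13.1%. Zrsr1 exons overlapped those of its host Commd1 over 9.17%. Without a statement that counting used strand, reads of such overlapping genes cannot be told apart here.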
